A study of Mus musculus with 8 samples.

Results

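The genes described here encode proteins that keep retrotransposons silent or block their spread: Setdb1, Trim28, Ehmt2, Dnmt1, Dnmt3a, Dnmt3b, Dnmt3l, Mov10, Apobec3 and Samhd1. They were chosen by name, and each was read on the transcript cluster with the highest mean intensity among clusters that carry its symbol alone. All 10 of 10 were found, out of 19938 genes named on the array. A gene can have more than 1 cluster. A cluster is a set of array probes summarised as 1 value, and it can carry several gene symbols. Its RMA intensity, a background-corrected and normalised brightness on a linear scale, is comparable between arrays for 1 gene but not between genes.

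Total RNA came from round spermatids, germ cells that have just completed meiosis, of adult C57BL/6 mice, purified on a gradient of bovine serum albumin. There were 2 arrays for each of 4 genotypes at Piwil1, the gene of the piRNA-binding protein MIWI, labelled biological replicates. MIWI -/- carried no other allele than the null. MIWI -/KI combined the null with a knock-in, MIWI +/KI combined the wild type with the knock-in, and MIWI +/- combined the wild type with the null. No group had 2 wild-type alleles. What the knock-in changes is not described in the labels; the series title ties LINE1 silencing to catalysis by MIWI. The labels do not say how many animals went into a preparation, and p-values measure the spread between preparations, which may be technical. In whole fractions, fewer cells of a type and less RNA per cell cannot be told apart.

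The genes stand for a chromatin layer and an antiviral layer of defence. In the nucleus, KRAB zinc finger proteins bring the corepressor TRIM28 to retrotransposons, and TRIM28 brings SETDB1, which trimethylates lysine 9 of histone H3. G9a, the product of Ehmt2, adds lower methylation states at the same residue. DNMT3A and DNMT3B lay down DNA methylation, DNMT3L assists them without catalytic activity of its own, and DNMT1 copies the marks at replication. In male germ cells this methylation is set before birth, and DNMT3L is needed for it. In the antiviral layer, the RNA helicase MOV10, the cytidine deaminase APOBEC3 and the dNTP hydrolase SAMHD1 limit the RNA of retroelements or the making of their DNA copy. In the mouse male germ line, piRNAs guide PIWI proteins, MIWI among them, to the same elements.

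Array medians lay between 66.6 and 71.8. Precision is set by having 2 arrays a genotype. Piwil1 had 196 and 151 in MIWI -/-, 672 and 696 in MIWI -/KI, 679.8 and 749 in MIWI +/KI, and 389 and 371 in MIWI +/-, so the null arrays were the lowest. The MIWI -/KI arrays stood farthest apart (r = 0.970 across clusters, against 0.984 to 0.995 within the other genotypes). MIWI -/KI replicate 1 and MIWI -/- replicate 1 were more alike (r = 0.988) than either was to its own replicate. MIWI -/KI replicate 2 was the highest array for 21.6% of all genes and the lowest for 34.9%. Of the round spermatid markers, 12 of 12 were above the array median on every array. Their summed intensity was 13950 and 13249 in MIWI -/-, 15373 and 14180 in MIWI -/KI, 16950 and 15807 in MIWI +/KI, and 20683 and 19123 in MIWI +/-. Tnp1 and Prm1, which encode chromatin packaging proteins of later spermatids, carried that order. Tnp1 had 451 and 244 in MIWI -/- and 3820 and 3333 in MIWI +/-. Prm1 had 628 and 372 in MIWI -/- and 4185 and 2808 in MIWI +/-. These 2 falls passed an adjusted p under 0.05 in limma, also in 20 of 20 alternative processings. The other 10 markers summed to 12870.4 and 12632 in MIWI -/-, 13836 and 13050.2 in MIWI -/KI, 13060.2 and 12279 in MIWI +/KI, and 12678 and 12982 in MIWI +/-. That sum held changes in both directions. Tssk2 was lower in MIWI -/- (769 and 725) than in MIWI +/- (1625 and 1380). Acr was higher in MIWI -/- (2347 and 2633) than in MIWI +/- (1484 and 1431). Tssk2 and Acr passed an adjusted p under 0.05 in limma, in 14 and 15 of 20 alternative processings. Of all 12 round spermatid markers, 3 had a log2 difference above 0 in MIWI -/- against MIWI +/-. Their median was -0.18, beside 0.01 over all genes. Markers of other cells were read the same way: 13 of 13 spermatocyte, 9 of 13 Sertoli cell, 7 of 12 spermatogonia, 6 of 12 Leydig and stromal, and 2 of 11 blood and macrophage markers were above the median on every array. Intensity is not comparable between genes, so these counts do not show which cells were present.

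Trim28 was the 1 restriction gene of 10 that passed the threshold, in MIWI -/- against MIWI +/-, where 4.73% of all clusters passed and 2.21% passed as higher. The other 9 were not called in any comparison of genotypes. The threshold was an adjusted p under 0.05 in limma, with the Benjamini-Hochberg adjustment over all 35512 clusters. When only clusters with 1 gene symbol were tested, 10.1% passed in MIWI -/- against MIWI +/-, in either direction. Trim28 (cluster 10550076) had 1629.9 and 2204 in MIWI -/-, 1438 and 1256 in MIWI -/KI, 1746 and 1681 in MIWI +/KI, and 1163 and 1046 in MIWI +/-. Every array of MIWI -/-, MIWI -/KI and MIWI +/KI was above both MIWI +/- arrays, and MIWI +/KI, which has a wild-type allele, lay within the span of MIWI -/-. Trim28 averaged 1917 ± 406 in MIWI -/- and 1104 ± 82.9 in MIWI +/- (SD, n = 2 each). It rose by 1.72-fold, a log2 difference of 0.78 (SE 0.17, 95% interval 0.40 to 1.16, adjusted p = 0.0377 by limma).

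**Figure D1:**
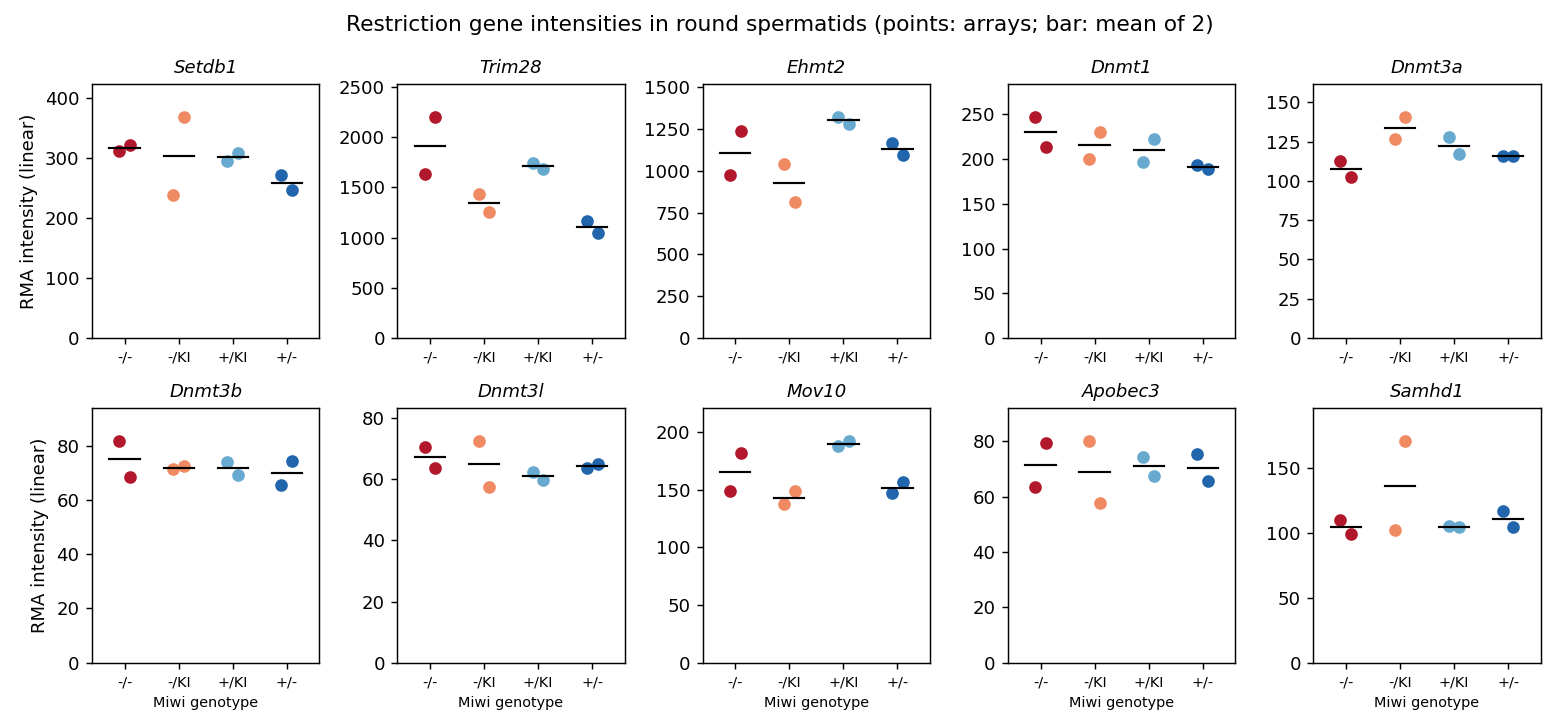
RMA intensity (linear axis from 0) of the 10 restriction genes in each array, by Miwi genotype; points are arrays and bars the mean of 2. Trim28 is lowest in MIWI +/- (1163 and 1046), and Samhd1 has 1 high array, MIWI -/KI replicate 2 (170.1).

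The same gene was not called in the other genotypes. In MIWI +/KI against MIWI +/- the log2 difference of Trim28 was 0.64 (SE 0.17, interval 0.25 to 1.02, limma adjusted p = 0.212), with arrays that did not overlap; here 0.0648% of clusters were called. It passed with only the compared groups in the fit and with array weights (adjusted p = 0.0225 and 0.0183), where 7.14% and 7.46% of clusters passed. In MIWI -/KI against MIWI +/- it was 0.29 (interval -0.10 to 0.67, adjusted p = 0.499), and against MIWI +/KI it was -0.35 (interval -0.73 to 0.03, adjusted p = 0.350). Without the wild-type allele the Trim28 mean was higher beside a null allele (0.78) and lower beside a knock-in allele (-0.35). The difference between those differences was -1.13 (SE 0.23, interval -1.67 to -0.59), with an unadjusted p of 0.00131 and an adjusted p = 0.132 by limma, which did not pass. Against MIWI -/-, the MIWI -/KI arrays were lower by a log2 difference of -0.50 (adjusted p = 0.998), in a comparison where 0.0% of clusters were called.

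The Trim28 call was lost when any 1 of 5 arrays was left out. Its limma adjusted p was 0.158 without MIWI -/- replicate 2, 0.151 and 0.254 without MIWI +/- replicates 1 and 2, and 0.0977 and 0.0979 without MIWI +/KI replicates 1 and 2, whose spread enters the same fit. It was 0.0891 with only the compared groups in the fit, 0.0608 after a further quantile normalization and 0.0540 with the replicate block, while the log2 difference stayed between 0.56 and 1.00 in all 20 alternatives.

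**Figure D2:**
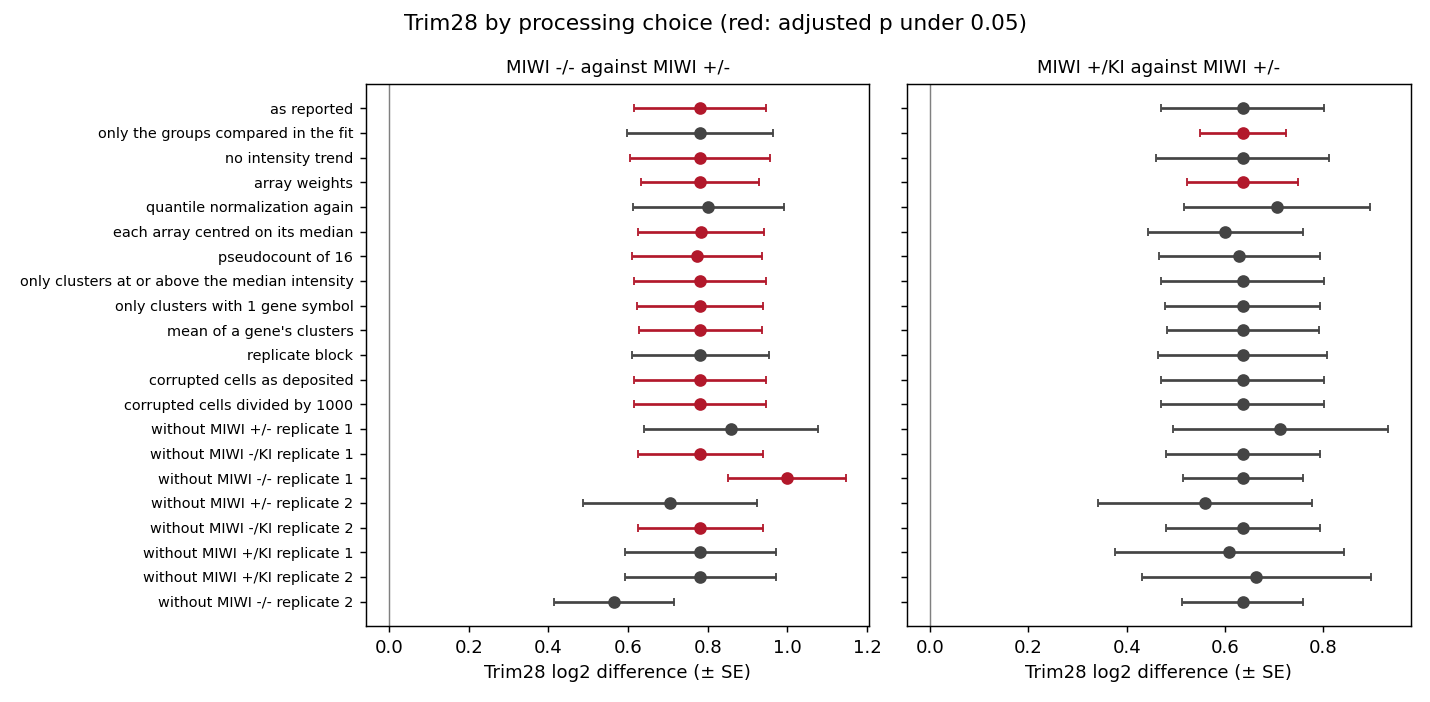
Log2 difference of Trim28 (± SE) under each processing choice, MIWI -/- against MIWI +/- on the left and MIWI +/KI against MIWI +/- on the right; red marks an adjusted p under 0.05. The left-hand values lie between 0.56 and 1.00, and 12 of 20 alternatives keep the call.

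The partners of TRIM28 in histone methylation were read beside it. Setdb1 (cluster 10500157) had 311 and 322 in MIWI -/-, 238 and 369 in MIWI -/KI, 295 and 309 in MIWI +/KI, and 272 and 246 in MIWI +/-. Both MIWI -/- arrays were above both MIWI +/- arrays, and the MIWI -/KI arrays were the lowest and the highest of all 8. The log2 difference of Setdb1 in MIWI -/- against MIWI +/- was 0.29 (SE 0.21, interval -0.20 to 0.78, limma adjusted p = 0.660). That interval includes no difference.

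Ehmt2 (cluster 10444524) had 976 and 1239 in MIWI -/-, 1038 and 811 in MIWI -/KI, 1323 and 1279.7 in MIWI +/KI, and 1166 and 1095 in MIWI +/-. The MIWI -/KI arrays were below both MIWI +/KI arrays and both MIWI +/- arrays. Ehmt2 averaged 924 ± 161 in MIWI -/KI and 1301 ± 30.7 in MIWI +/KI (SD, n = 2 each), a log2 difference of -0.50 (SE 0.17, interval -0.90 to -0.11, limma adjusted p = 0.195). Without MIWI -/KI replicate 1, which leaves 1 array whose spread is taken from the other groups, the difference was -0.68 and passed (adjusted p = 0.0470), as did 12.7% of clusters. Without MIWI -/KI replicate 2 it was -0.33 (adjusted p = 0.452). In MIWI -/- against MIWI +/- it was -0.04 (interval -0.43 to 0.35). Ehmt1, which encodes the partner of G9a, had log2 differences of 0.05 for MIWI -/- over MIWI +/- and 0.00 for MIWI -/KI over MIWI +/KI (adjusted p = 0.973 and 0.996).

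A wider set of 23 measured genes for lysine 9 methylation, its readers and corepressors held 3 that rose in MIWI -/- against MIWI +/- and none that fell, where 2.21% of all clusters were called higher. Of clusters with 1 gene symbol, tested alone, 10.1% were called there in either direction. The median log2 difference of the 23 genes was 0.27, beside 0.01 over all genes, and 21 of 23 values were above 0. Cbx5 encodes the heterochromatin protein HP1 alpha, which binds methylated lysine 9. It had 496 and 519 in MIWI -/-, 564 and 693 in MIWI -/KI, 349.9 and 380.4 in MIWI +/KI, and 223 and 248 in MIWI +/-. No array of a genotype without a wild-type allele overlapped one with it, and MIWI +/KI lay between. Relative to MIWI +/-, Cbx5 rose by a log2 difference of 1.11 in MIWI -/- and 1.41 in MIWI -/KI (SE 0.16, limma adjusted p = 0.00745 and 0.00265).

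Atf7ip, whose product binds and stabilises SETDB1, had 905 and 1084 in MIWI -/-, 791 and 953 in MIWI -/KI, 901 and 959.7 in MIWI +/KI, and 544 and 629.8 in MIWI +/-. As with Trim28, the MIWI +/- arrays were the lowest and MIWI +/KI was not set apart from MIWI -/-. Atf7ip rose in MIWI -/- (0.76, adjusted p = 0.0399) and was not called in MIWI +/KI (0.67, adjusted p = 0.184), both by limma against MIWI +/-. Pphln1, a subunit of the HUSH silencing complex, followed the wild-type allele instead: it had 878 and 696 in MIWI -/-, 899 and 864 in MIWI -/KI, 412 and 446 in MIWI +/KI, and 504 and 465 in MIWI +/-. It rose in MIWI -/- against MIWI +/- (0.69, adjusted p = 0.0497), in MIWI -/KI against MIWI +/- (0.86, adjusted p = 0.0202) and in MIWI -/KI against MIWI +/KI (1.04, adjusted p = 0.0215). The Atf7ip and Pphln1 calls in MIWI -/- were lost in 10 and 12 of 20 alternatives, among them the loss of any 1 array of MIWI -/-, MIWI +/KI or MIWI +/- (largest adjusted p = 0.608 and 0.312 over the alternatives). The Atf7ip difference was 0.25 at its lowest, as the mean of its clusters. The other 2 Pphln1 calls were each lost without either replicate of MIWI +/- or of MIWI +/KI, and with only the compared groups in the fit. The call against MIWI +/- was also lost with array weights, and the call against MIWI +/KI without MIWI -/KI replicate 2. The largest limma adjusted p was 0.170 and 0.249. The Cbx5 call in MIWI -/- was lost without either MIWI +/- replicate (largest adjusted p = 0.0887).

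The 4 genes of lysine 9 silencing that rose in MIWI -/-, Trim28 among them, are shown by the 250 bases before their first start in the RefSeq table (GRCm38.p6), 5′ to 3′ on the gene's strand. Capitals mark GC boxes, GGGCGG or its complement CCGCCC.
Trim28, chr7:13023902-13024151, plus strand: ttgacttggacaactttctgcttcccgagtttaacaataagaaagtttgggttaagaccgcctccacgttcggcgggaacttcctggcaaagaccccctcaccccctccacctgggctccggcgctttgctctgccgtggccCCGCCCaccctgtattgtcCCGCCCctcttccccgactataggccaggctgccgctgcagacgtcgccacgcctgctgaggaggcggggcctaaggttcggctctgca
Atf7ip, chr6:136518601-136518850, plus strand: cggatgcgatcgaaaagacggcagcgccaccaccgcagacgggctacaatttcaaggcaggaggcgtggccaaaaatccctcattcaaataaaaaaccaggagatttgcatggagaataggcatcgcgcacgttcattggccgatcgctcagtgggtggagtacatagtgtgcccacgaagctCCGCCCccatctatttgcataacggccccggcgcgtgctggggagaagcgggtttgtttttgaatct
Cbx5, chr15:103239853-103240102, minus strand: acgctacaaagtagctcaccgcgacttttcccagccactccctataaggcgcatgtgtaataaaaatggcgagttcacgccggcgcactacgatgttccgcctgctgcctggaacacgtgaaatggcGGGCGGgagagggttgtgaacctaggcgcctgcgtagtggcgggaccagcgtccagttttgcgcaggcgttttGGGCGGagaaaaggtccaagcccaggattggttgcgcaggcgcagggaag
Pphln1, chr15:93398100-93398349, plus strand: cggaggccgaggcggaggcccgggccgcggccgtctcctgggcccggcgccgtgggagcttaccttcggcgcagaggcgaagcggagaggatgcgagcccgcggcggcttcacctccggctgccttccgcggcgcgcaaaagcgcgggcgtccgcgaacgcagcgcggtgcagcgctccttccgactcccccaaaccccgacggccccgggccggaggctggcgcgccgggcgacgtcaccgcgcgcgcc
They hold 17, 20, 22 and 46 CpG dinucleotides, and the median of 32851 such windows was 6. The upper quartile was 16, and 23.5% of all windows held at least 17. The windows of the 10 restriction genes ran from 2 (Dnmt1) to 40 (Dnmt3a), neither of them a called gene. Trim28 and Cbx5 have 2 GC boxes each, Atf7ip has 1 and Pphln1 none, and 32.7% of all windows have at least 1 on either strand. The cAMP response element TGACGTCA, the site of the haploid activator CREM, is in none of the 4 and in 1.55% of all windows. All 10 restriction genes matched the table, with 19 windows, and 11 of the 19 windows have a GC box and 0 of the 10 genes have the element. A match describes these letters only, and no binding was measured.

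The DNA methyltransferase genes were not called in any comparison. Dnmt1 (cluster 10591369), the copying enzyme, had 247 and 213 in MIWI -/-, 199.8 and 231 in MIWI -/KI, 197 and 223 in MIWI +/KI, and 193 and 189 in MIWI +/-. The MIWI +/- arrays were the lowest, by a small margin. In MIWI -/- against MIWI +/- the log2 difference of Dnmt1 was 0.27 (interval -0.11 to 0.65, limma adjusted p = 0.554). Uhrf1, whose product brings DNMT1 to replicated DNA, had 479.7 and 629 in MIWI -/- and 341 and 351 in MIWI +/-, a log2 difference of 0.67 that missed the threshold (adjusted p = 0.0662).

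Dnmt3a (cluster 10394209), a de novo gene, had 113 and 102 in MIWI -/-, 127 and 141 in MIWI -/KI, 128 and 117 in MIWI +/KI, and 116 on both arrays of MIWI +/-. The MIWI -/KI arrays were above and the MIWI -/- arrays below those of MIWI +/-, with log2 differences of 0.21 (interval -0.14 to 0.55) and -0.11 (interval -0.46 to 0.24). Dnmt3b ranged from 65.5 to 81.6 over the 8 arrays and Dnmt3l from 57.4 to 72.4. Both lay near the array medians, Dnmt3b above its array's median on 4 of 8 arrays and Dnmt3l on 2. In MIWI -/- against MIWI +/- their log2 differences were 0.10 (interval -0.26 to 0.46) and 0.06 (interval -0.31 to 0.43).

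Among 15 other measured genes of DNA methylation, 2 rose and 1 fell in MIWI -/- against MIWI +/-, where 4.73% of all clusters passed. Of clusters with 1 gene symbol, tested alone, 10.1% passed there. The median of the 15 was -0.01, beside 0.01 over all genes. Morc1, needed for retrotransposon silencing in the mouse male germ line, had 326 and 275 in MIWI -/-, 333 and 395 in MIWI -/KI, 78.0 and 79.9 in MIWI +/KI, and 80.2 and 92.5 in MIWI +/-. The genotypes without a wild-type allele were far above those with one. Morc1 rose by a log2 difference of 1.80 for MIWI -/- over MIWI +/- and by 2.20 for MIWI -/KI over MIWI +/KI (SE 0.17, limma adjusted p = 0.00103 and 0.00147), and was called in all 20 alternatives of both. Uhrf2, a relative of Uhrf1, had 273 and 231 in MIWI -/-, 259.9 and 341 in MIWI -/KI, 163 and 174 in MIWI +/KI, and 134 and 140.1 in MIWI +/-. It rose in MIWI -/- (0.87, adjusted p = 0.0359) and in MIWI -/KI (1.12, adjusted p = 0.0125), both by limma against MIWI +/-. The first of these calls was lost when any 1 array of MIWI -/-, MIWI +/KI or MIWI +/- was left out, and with each array centred on its median. The second was lost without either MIWI +/- replicate and with only the compared groups in the fit. The largest limma adjusted p was 0.228 for the first and 0.120 for the second.

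Mbd2, which encodes a reader of methylated CpG, had 274 and 288 in MIWI -/-, 299 and 354 in MIWI -/KI, and 649 and 675 in MIWI +/KI. In MIWI +/- it had 927 in replicate 2, and the deposited value of replicate 1 was about 1000 times its row and was treated as missing. MIWI +/- therefore rests on 1 array here, and its spread is taken from the other groups. In MIWI -/- against MIWI +/-, Mbd2 fell by 1.72 on the log2 scale (limma adjusted p = 0.00366) and it fell by 1.03 for MIWI -/KI over MIWI +/KI (adjusted p = 0.0292). With the missing value divided by 1000 the first difference was -1.71 (adjusted p = 0.000602), and with it as deposited -6.69 (adjusted p = 0.229). The call against MIWI +/KI was lost without any 1 of the MIWI +/KI and MIWI +/- arrays. It was also lost with only the compared groups in the fit, with each array centred on its median, and with the value as deposited.

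**Figure D3:**
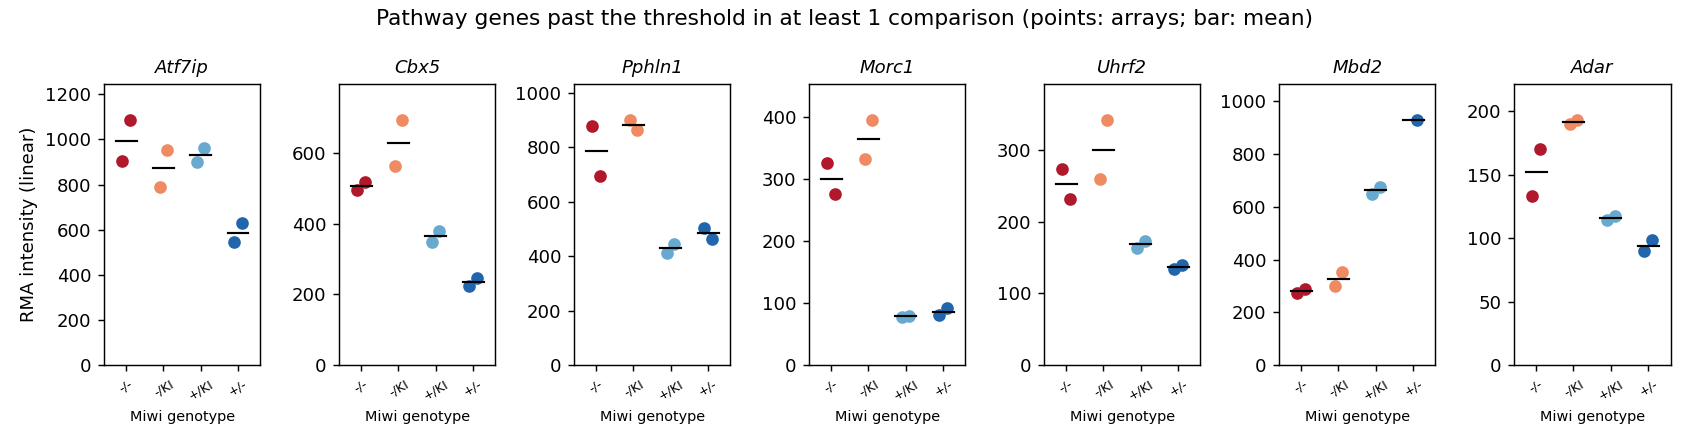
RMA intensity (linear axis from 0) of the 7 other genes of the 3 pathway lists that passed the threshold in at least 1 comparison; points are arrays and bars their mean, with 1 array missing for Mbd2 in MIWI +/-. Morc1 lies between 275 and 395 without a wild-type allele and between 78.0 and 92.5 with one, and Mbd2 runs the other way.

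Mov10, Samhd1 and Apobec3 were not called either. Mov10 (cluster 10500911) had 149 and 182 in MIWI -/-, 137 and 149 in MIWI -/KI, 188 and 192 in MIWI +/KI, and 147 and 157 in MIWI +/-. The MIWI +/KI arrays were the 2 highest of the 8. Mov10 averaged 143 ± 8.12 in MIWI -/KI and 189.6 ± 2.94 in MIWI +/KI (SD, n = 2 each), a log2 difference of -0.41 (SE 0.16, interval -0.78 to -0.04, limma adjusted p = 0.265). MIWI +/KI against MIWI +/- gave 0.32 (interval -0.05 to 0.69, adjusted p = 0.513). Mov10l1, the germ cell paralogue that takes part in piRNA production, had log2 differences of 0.12 for MIWI -/- and 0.25 for MIWI -/KI, each against MIWI +/- (adjusted p = 0.890 and 0.595).

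Samhd1 (cluster 10489107) had 109.9 and 99.2 in MIWI -/-, 102 and 170.1 in MIWI -/KI, 105 on both arrays of MIWI +/KI, and 117 and 105 in MIWI +/-. MIWI -/KI replicate 2 stood alone above the other 7 arrays. With both MIWI -/KI arrays the log2 difference against MIWI +/- was 0.25 (interval -0.29 to 0.80, limma adjusted p = 0.736). Without MIWI -/KI replicate 1, which leaves a single array assumed to vary like the other groups, it was 0.62 (adjusted p = 0.0443), and 0.70 against MIWI +/KI (adjusted p = 0.0366). In these settings 12.9% and 12.7% of clusters passed. Without MIWI -/KI replicate 2 both turned negative, to -0.12 and -0.04.

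Apobec3 (cluster 10425333), the only mouse member of the APOBEC3 subfamily, ranged from 57.7 to 79.9 over the 8 arrays, and each genotype overlapped each other one. Its log2 difference in MIWI -/- against MIWI +/- was 0.02 (interval -0.46 to 0.49, limma adjusted p = 0.994). A dimmer cluster of the same gene ranged from 27.6 to 38.6 and gave -0.02. Across the 8 arrays the correlation of the 2 clusters was -0.11, a description of dim signals.

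Of 24 other measured genes for antiviral and nucleic acid restriction, none passed in MIWI -/- against MIWI +/- by limma, and 4 reached an unadjusted p under 0.05, as did 15.7% of all clusters. The median was 0.03, beside 0.01 over all genes. Adar, the gene of an enzyme that edits double-stranded RNA, had 134 and 170.2 in MIWI -/-, 190.0 and 193 in MIWI -/KI, 115 and 118 in MIWI +/KI, and 89.9 and 98.5 in MIWI +/-. It was higher on every array without a wild-type allele. Adar rose by a log2 difference of 1.02 in MIWI -/KI against MIWI +/- (limma adjusted p = 0.0127), and its 0.68 in MIWI -/- missed the threshold (adjusted p = 0.0655). The first call was lost without either MIWI +/- replicate and with only the compared groups in the fit (largest limma adjusted p = 0.131).

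SAMHD1 and APOBEC3 are known from blood cells, so markers of those cells were set beside them. The summed intensity of the 11 blood and macrophage markers was 1497 and 1518 in MIWI -/-, 1641 and 1496 in MIWI -/KI, 1919 and 1786 in MIWI +/KI, and 2511 and 2371 in MIWI +/-. Aif1, on the list as a macrophage marker, carried that order, with 789 and 732 in MIWI -/- and 1680 and 1578 in MIWI +/-. Which cells its signal came from was not tested. The other 10 markers summed to 708 and 785 in MIWI -/-, 733 and 765 in MIWI -/KI, 742 and 777 in MIWI +/KI, and 831 and 793 in MIWI +/-. The median log2 difference of the 11 in MIWI -/- against MIWI +/- was -0.03, with 4 above 0. Of the 11, 3 fell there by limma: Aif1 (-1.10, adjusted p = 0.00635), H2-Aa (-0.73, adjusted p = 0.0320) and Alas2 (-0.92, adjusted p = 0.0267). The H2-Aa and Alas2 calls were lost when any 1 array of MIWI -/-, MIWI +/KI or MIWI +/- was left out. That of Aif1 was lost without either MIWI +/- replicate. That of H2-Aa was also lost with the replicate block and with only the compared groups in the fit. The largest limma adjusted p was 0.212, 0.204 and 0.0763 for H2-Aa, Alas2 and Aif1. The Sertoli cell sum was 2037 and 1560 in MIWI -/-, 1938 and 1556 in MIWI -/KI, 2176 and 2628 in MIWI +/KI, and 2965 and 2713 in MIWI +/-, with 0 of its 13 markers above 0 in the log2 difference of MIWI -/- against MIWI +/-. The spermatocyte sum overlapped between MIWI -/- (9227 and 7542) and MIWI +/- (9131 and 8181), as did the spermatogonia sum, at 1528 and 1458 in MIWI -/- and 1497 and 1451 in MIWI +/-. The Leydig and stromal sum was 1626 and 1568 in MIWI -/- and 1405 and 1224 in MIWI +/-. Single markers of these lists passed in MIWI -/- against MIWI +/- by limma, where 4.73% of all clusters passed. Cst12, Aard and Tsx (Sertoli cell) and Syce2 (spermatocyte) fell. Tex14 (spermatocyte), Lin28a (spermatogonia) and Acta2 (Leydig and stromal) rose. Each of these calls was lost in some alternatives. The part of any of these cell types in the restriction gene values was not tested.

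Over the 10 restriction genes together, the median log2 difference in MIWI -/- against MIWI +/- was 0.08, beside 0.01 over all genes, with 7 values above 0 and 3 below. The arrays of 4 genes did not overlap there, and 44.9% of all clusters had arrays that did not overlap. In MIWI -/KI against MIWI +/- limma called 0 of 10, against 4.87% of clusters, and 0 reached an unadjusted p under 0.05. The arrays of 4 genes did not overlap (37.8% of clusters). In MIWI -/KI against MIWI +/KI it also called 0, against 1.87%, with Ehmt2 and Mov10 at an unadjusted p of 0.0181 and 0.0349 and 3 genes without overlap (45.9% of clusters). In MIWI +/KI against MIWI +/- it called 0, with Trim28 at an unadjusted p of 0.00495 and 7 genes without overlap (54.1% of clusters). In MIWI -/KI against MIWI -/- it called 0, with Trim28 at an unadjusted p of 0.0172 and 2 genes without overlap (21.9% of clusters). For the mean of MIWI -/- and MIWI -/KI against the mean of MIWI +/KI and MIWI +/- it called 0, against 6.46% of clusters, and 0 reached an unadjusted p under 0.05. No gene was without overlap there (12.9% of clusters). Log2 differences then ran from -0.27 for Ehmt2 to 0.22 for Trim28, and the intervals of all 10 lay between -0.55 and 0.51. A 2-fold change of this averaged intensity was therefore outside every one of these intervals. The average does not bound the change beside each allele, as Trim28 shows (0.78 beside the null, -0.35 beside the knock-in). For Dnmt3b, Dnmt3l and Apobec3, which lay near the array medians, the intervals describe dim signals and do not exclude a 2-fold change in transcript.

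**Figure D4:**
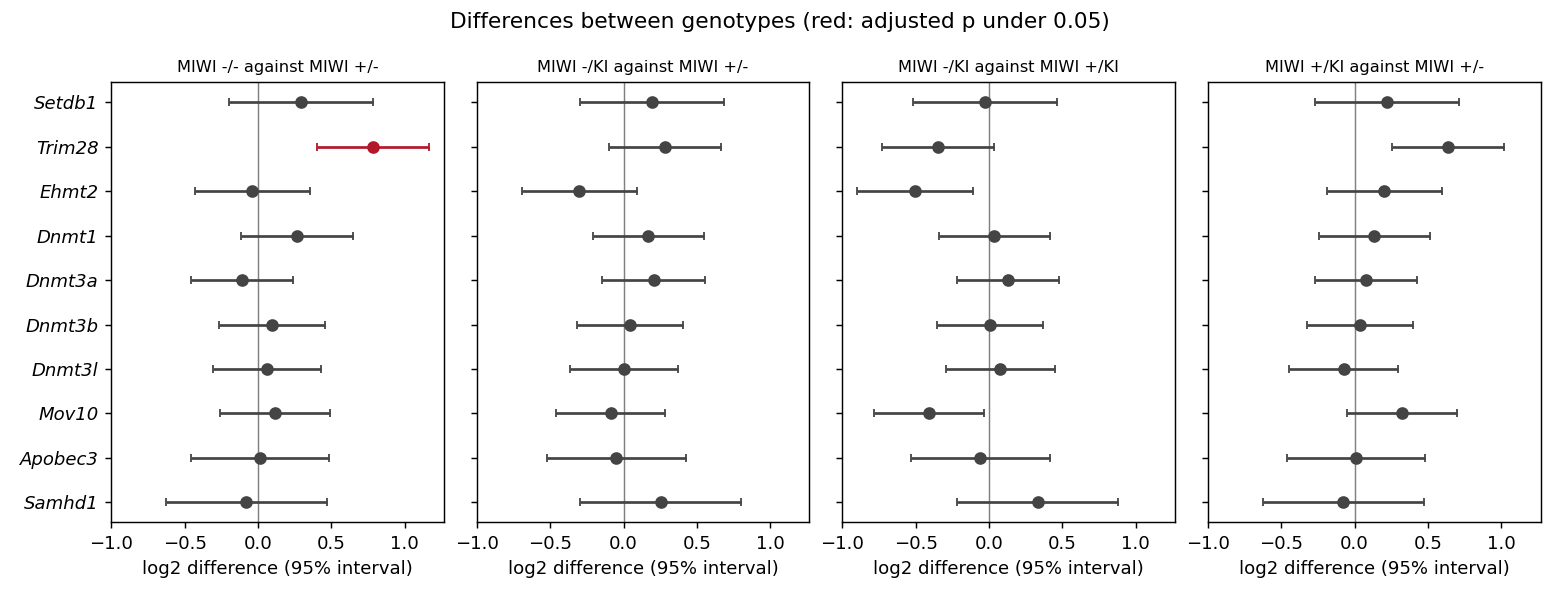
Log2 differences with 95% intervals from limma for the 10 restriction genes in 4 comparisons of genotypes, on 1 axis; red marks an adjusted p under 0.05. Trim28 in MIWI -/- against MIWI +/- (0.78) is the 1 red point.

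The genes that varied most between genotypes, by limma's F statistic, were Trim28, Ehmt2 and Mov10. A set of highest arrays that does not follow the wild-type allele was shared by these 3. For each of them the 3 highest arrays were both MIWI +/KI arrays and MIWI -/- replicate 2. The same 3 arrays, in any order, were the highest for 7.71% of 19933 genes with a value on every array. This shared set was noticed after the values were seen. On the second principal component of all clusters, both MIWI +/KI arrays, MIWI -/- replicate 2 and MIWI -/KI replicate 1 had positive scores and the other 4 negative ones. MIWI -/KI replicate 2 was the highest array for Setdb1, Dnmt3a and Samhd1 and the lowest for Ehmt2, Dnmt3l and Apobec3.

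**Figure D5:**
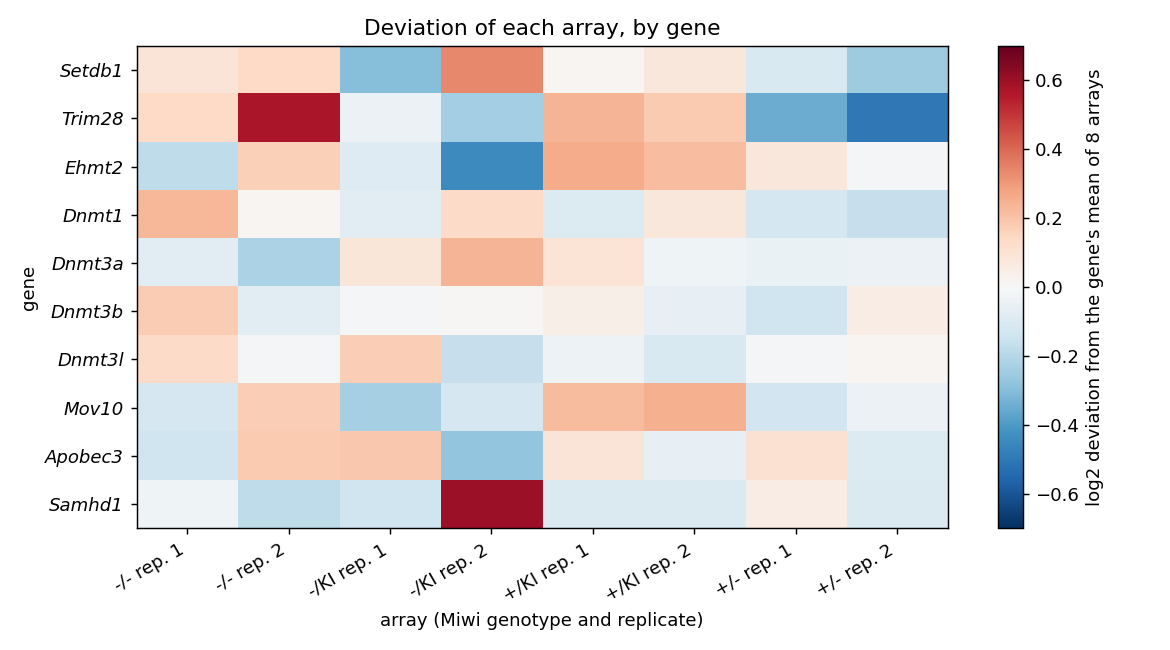
Deviation of each array from the gene's mean log2 intensity over the 8 arrays (colour scale in log2 units), with genes as rows and arrays, grouped by Miwi genotype, as columns. Trim28, Ehmt2 and Mov10 are highest in the MIWI +/KI arrays and MIWI -/- replicate 2, and Samhd1 stands out in MIWI -/KI replicate 2.

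Many genes had patterns like these over the 8 arrays. The closest to Trim28 by Pearson r of log2 intensity were Slc2a4 (0.992), Lpcat4 (0.990) and Zer1 (0.989). The closest to Ehmt2 were Ipo13 (0.995), Selenon (0.988) and Ncan (0.984), and the closest to Mov10 were CK137956 (0.987), Rabl2 (0.986) and 4931422A03Rik (0.983). In all, 371, 341 and 173 genes reached an r of 0.9 with Trim28, Ehmt2 and Mov10. The arrays share 1 normalisation, and such likeness is a description of these 8 arrays.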

How the data were processed

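The deposited table holds intensities summarised per transcript cluster by the authors with RMA, per the submitters' processing notes; its version and genome build are not given in the sources used here. Values are linear, so log2 was taken. In 8 cells the deposited value was a whole number over 100 times its row's median, and these were treated as missing (1 is Mbd2's). Clusters were named through GEO's platform annotation: of 35512 clusters 21789 had 1 gene symbol and 1621 had several. No probe position was used. No column lay outside the 8 arrays.

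All comparisons came from 1 limma 3.58.1 fit (R 4.3.3) with a mean per genotype over all 8 arrays and eBayes with a trend on mean intensity (residual degrees of freedom 4, prior 3.976). P-values are two-sided and adjusted by Benjamini-Hochberg across the whole table. Means and SDs are of linear intensities, and intervals are limma's at 95%. The median SE of a difference was 0.18 on the log2 scale. The fit was tested on simulated data. Genes, lists and tests were chosen with earlier results of these data known; the test of the difference between differences was added later. Named were all restriction genes, list genes past the threshold, and the 3 genes most like the 3 members with the largest F statistic; Ehmt1, Uhrf1 and Mov10l1 were added as partners after their values were seen. Alternatives were other fits, normalisations, filters and the loss of each array.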

Additional observations from a re-analysis of the deposited data

How the results depend on the processing

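Of 20 alternatives, Trim28 kept its call in MIWI -/- against MIWI +/- in 12 and its sign in all 20. The count of restriction genes called there was 0 with only the compared groups in the fit, 0 after a further quantile normalization, 0 with the replicate block, and 0 to 1 when an array was left out. It was 0 to 1 for MIWI -/KI against MIWI +/- and 0 to 2 for MIWI -/KI against MIWI +/KI when an array was left out. For MIWI +/KI against MIWI +/- it was 1 with only the compared groups and 1 with array weights, Trim28 both times (adjusted p = 0.0225 and 0.0183 by limma). No alternative called a restriction gene in MIWI -/KI against MIWI -/- or without against with a wild-type allele. Dnmt3l could not be tested among clusters at or above the median intensity. Mbd2 has no value against MIWI +/- without MIWI +/- replicate 2. The marker sums without Tnp1 and Prm1 or without Aif1, and the division of misread values by 1000, were chosen after seeing the data. Titles share replicate numbers, but deviations of same-numbered arrays correlated between -0.26 and 0.30, so the numbers were not taken to pair arrays; the replicate block changed no other call among the restriction genes.

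The count of all clusters called moved with the arrays used, and was highest without MIWI -/KI replicate 1 in 4 of 6 comparisons. Over the alternatives it ran from 509 to 2907 for MIWI -/- against MIWI +/- (1679 as reported) and from 479 to 4578 for MIWI -/KI against MIWI +/- (1730.0). It ran from 47 to 4493 for MIWI -/KI against MIWI +/KI (665), 0 to 2650.0 for MIWI +/KI against MIWI +/- (23), 0 to 24 for MIWI -/KI against MIWI -/- (0), and 912 to 5115 without against with a wild-type allele (2295). In MIWI -/- against MIWI +/- the lysine 9 list had 0 to 4 calls over the alternatives, the DNA methylation list 1 to 4 and the antiviral list 0 to 2; in MIWI -/KI against MIWI +/- they had 1 to 10, 1 to 3 and 0 to 2, and in MIWI -/KI against MIWI +/KI 0 to 7, 1 to 3 and 0 to 3. Of the 60 log2 differences of restriction genes, 31 changed sign in at least 1 alternative, none of them a called one; the cause was not tested. Dim clusters such as Dnmt3b, Dnmt3l and Apobec3 bound what these arrays can show.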
